A study of Mus musculus with 89 samples.

Results

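The 10 genes described here belong to the interleukin-6 (IL-6) cytokine family and its main signalling route in mouse lung: the ligands Il6, Osm, Lif and Il11, the receptor chains Il6ra, Osmr and Il6st, the transcription factor Stat3, the feedback inhibitor Socs3 and the transcription factor Cebpd. All non-control array probes whose sequence accession mapped to one of these symbols were taken, which gave 10 of the 22911 genes measured. The RNA came from lung tissue of female BALB/c mice aged 6 to 8 weeks. Every mouse, the controls included, had been sensitized with ovalbumin (OVA) in alum, and the mice were then challenged through the airways with OVA, which gives an allergic airway inflammation, or with phosphate-buffered saline (PBS). The challenge was given alone to the controls, or together with copper oxide nanoparticles by oropharyngeal aspiration on 4 consecutive days, and the lungs were taken 24 h after the last dose. The materials were the uncoated core CuO, CuO COOH with a carboxyl coating, CuO NH3 with an ammonium coating and CuO PEG with a polyethylene glycol coating, each at 2.5, 10 and 40 μg per mouse and administration (the treatment text of the labels writes mg in place of μg). Doses were matched by mass of material. The study's own chemical analysis found less copper per mass in the coated materials than in core CuO, and least in CuO PEG.

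The 26 groups of challenge, material and dose held 89 samples, with 7 PBS controls, 8 OVA controls, 4 samples each of PBS-challenged mice given 10 μg of CuO NH3 or CuO PEG, and 3 samples in every other group. Each sample was a pool of RNA from 2 mice, so that the spread between samples understates the spread between mice. CuO and CuO COOH were hybridised on slides 1 to 3 and CuO NH3 and CuO PEG on slides 4 to 6, each set with its own controls. In each sample 46.7% to 68.8% of the spots passed the scanner's test for signal well above background, and none (0) was saturated. The lung identity of the tissue was plain in all 89 samples, in which Sftpc of alveolar type 2 cells lay at 16.87 to 18.04, Scgb1a1 of club cells at 16.22 to 17.90 and Ager of alveolar type 1 cells at 13.75 to 14.89 on the log2 intensity scale.

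Most cytokines of the IL-6 family bind another receptor chain and share the signal-transducing chain gp130, which Il6st encodes. IL-6 uses the chain encoded by Il6ra, oncostatin M uses the chain encoded by Osmr, IL-11 uses that of Il11ra1, and LIF that of Lifr. Receptor-bound Janus kinases phosphorylate STAT3, which induces Socs3, an inhibitor that shuts the receptor off again, as well as acute phase and tissue repair genes in the lung and liver.

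Promoter windows of 300 bases were available from RefSeq (build GRCm38.p6, 250 bases before to 50 after the start) for 8 of the 10 members, in 9 windows, and not for Osm and Cebpd. They were searched on both strands for a STAT motif (TTCNNNGAA), an AP-1 motif (TGANTCA) and a C/EBP motif (TTNNGNAA), which 8.3%, 7.81% and 40.7% of the 32851 windows of the RefSeq table held. The windows of the members that moved most are shown 5′ to 3′ on the strand of the gene, with the matches in capitals. The window of Il6 (chr5:30012864-30013163, plus strand) held an AP-1 match that began 249 bases before the start and a C/EBP match that began 128 bases before it. That of Il11 (chr7:4778092-4778391, minus strand) held an AP-1 match 98 bases before the start, and a second annotated Il11 window held none of the motifs. That of Socs3 (chr11:117969317-117969616, minus strand) held a STAT match 154 bases before the start. No 2 of these matches overlapped.
Il6: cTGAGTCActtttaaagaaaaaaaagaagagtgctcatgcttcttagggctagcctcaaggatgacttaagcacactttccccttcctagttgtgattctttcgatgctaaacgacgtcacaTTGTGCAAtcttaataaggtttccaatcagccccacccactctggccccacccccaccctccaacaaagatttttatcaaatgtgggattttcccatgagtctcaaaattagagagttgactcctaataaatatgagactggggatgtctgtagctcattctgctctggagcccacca
Il11: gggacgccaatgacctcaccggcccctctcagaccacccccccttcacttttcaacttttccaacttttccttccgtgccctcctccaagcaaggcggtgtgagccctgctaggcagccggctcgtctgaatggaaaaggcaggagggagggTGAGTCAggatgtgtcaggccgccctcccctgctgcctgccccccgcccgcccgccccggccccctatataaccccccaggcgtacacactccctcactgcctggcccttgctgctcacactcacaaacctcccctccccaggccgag
Socs3: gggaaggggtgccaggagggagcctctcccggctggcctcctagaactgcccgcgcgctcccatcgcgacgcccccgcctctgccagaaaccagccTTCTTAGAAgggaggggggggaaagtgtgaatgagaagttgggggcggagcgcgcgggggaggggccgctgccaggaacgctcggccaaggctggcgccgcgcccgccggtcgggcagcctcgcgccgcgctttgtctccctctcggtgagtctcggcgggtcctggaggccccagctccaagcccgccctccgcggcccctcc
Of the windows not printed, those of Lif and Osmr held 1 AP-1 match each, those of Il6ra and Stat3 held C/EBP matches and that of Il6st held none of the 3 motifs. These matches describe letters and not binding.

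Levels below are log2 intensities with the effects of dye, slide and array position removed. Fold changes against controls come from a fit with dye and array as terms, so that they can differ from the difference of the levels in either direction. Background was not subtracted, which can compress the changes of dim genes. A call needed an absolute log2 fold change of more than 0.58 together with an adjusted p under 0.05. Of the members, Il6 and Lif were dim. Of the 89 samples, 68 had the first and 77 the second Il6 probe well above background, and among the 7 PBS controls these numbers were 0 and 2. The single probe of Lif did so in 59 samples. Of the 2 Osm probes, one was above background in all 89 samples and the other in 4. All other members were above background in every sample.

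**Figure D1:**
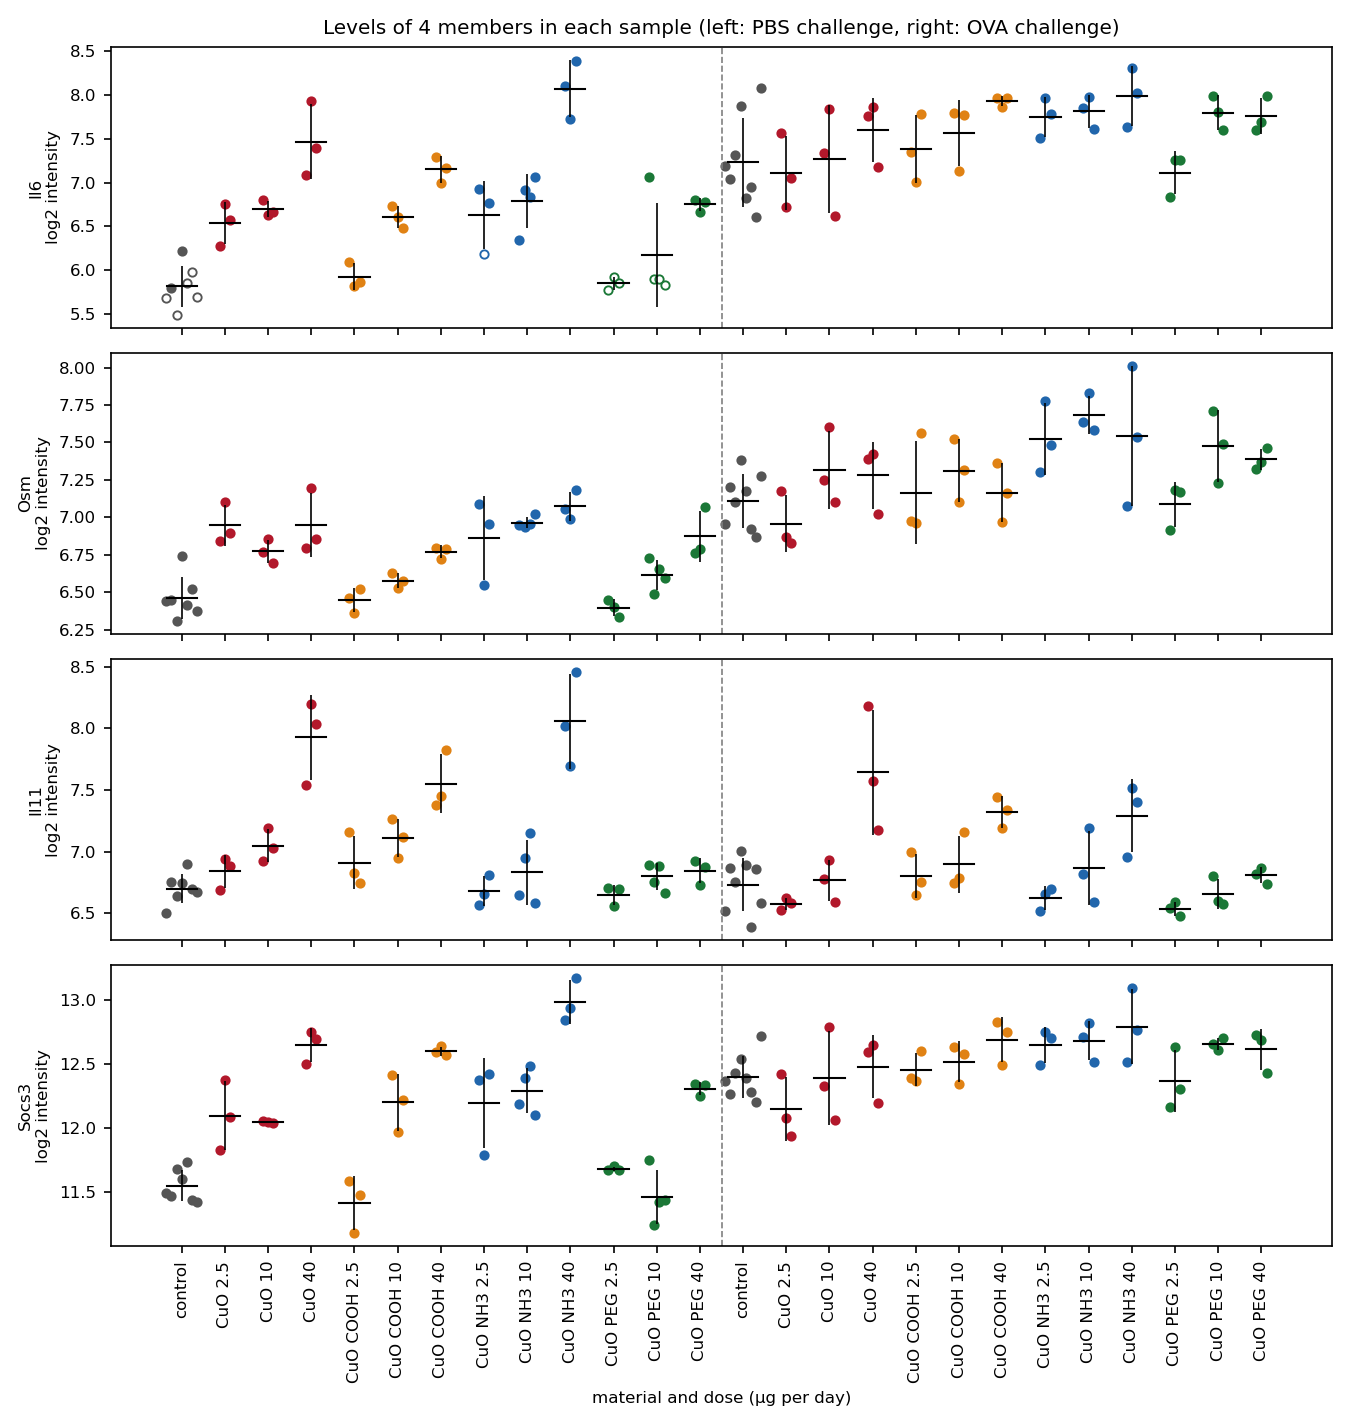
Log2 intensity (vertical axes, dye, slide and position removed) of Il6, Osm, Il11 and Socs3 in each of the 89 samples, by material and dose (horizontal axis), with PBS-challenged groups on the left and OVA-challenged groups on the right. Closed symbols are samples in which the gene stood well above background, open symbols samples in which it did not, and black bars the mean ± SD of a group. The Il6 levels of PBS-challenged mice lay at 5.49 to 6.22 in the controls and at 7.73 to 8.38 with 40 μg of CuO NH3.

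The OVA challenge alone raised Il6, Osm and Socs3 and left Il11 near its control level. Of the 10 members 3 were called in OVA controls against PBS controls, all higher, where 5.22% of the 22851 genes tested were called and 3.72% were called higher. Il6 lay at 5.49, 5.80 and 6.22 (lowest, median and highest) in the 7 PBS controls and at 6.61, 7.11 and 8.07 in the 8 OVA controls, so that the groups did not overlap. The fitted log2 fold change was 1.49 ± 0.23 (SE; 95% interval 1.01 to 1.97; limma, adjusted p = 8.0e-05), a 2.81-fold difference. Osm, a cytokine made by macrophages, neutrophils and T cells, lay at 6.31, 6.44 and 6.74 in PBS controls and at 6.87, 7.14 and 7.38 in OVA controls. The groups were again apart, with a log2 fold change of 0.64 ± 0.20 (adjusted p = 0.032). Socs3 lay at 11.42, 11.49 and 11.73 against 12.20, 12.38 and 12.71, also without overlap, and its log2 fold change was 0.74 ± 0.14 (adjusted p = 0.00083).

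Il11 did not pass the test in this comparison, with 6.50, 6.70 and 6.90 in PBS controls and 6.39, 6.81 and 7.01 in OVA controls. The 2 ranges lay within each other and the 95% interval of its log2 fold change ran from -0.23 to 0.39. The other members did not pass either, with log2 fold changes of 0.16 for Lif, -0.19 for Il6ra, 0.04 for Osmr, -0.05 for Il6st, 0.20 for Stat3 and 0.22 for Cebpd. The median over the 10 members was 0.18, against -0.02 over all genes. Of 10 monocyte and macrophage markers measured, 7 rose in the same comparison. The mean level over all 10 was 10.15 to 10.44 in PBS controls and 11.26 to 11.57 in OVA controls. The mean level of 11 neutrophil markers overlapped, at 9.87 to 10.17 and 9.96 to 10.46, and 1 of them rose. Marker levels of other cells were also apart. Those of eosinophils lay at 6.71 to 7.16 in PBS controls and 7.67 to 8.41 in OVA controls (2 of 6 markers rose), those of alveolar macrophages at 10.56 to 10.77 and 11.41 to 11.61 (2 of 8 rose) and those of T cells at 8.12 to 8.62 and 8.74 to 9.08 (3 of 7 rose). Airway epithelial markers lay at 11.30 to 11.90 and 11.94 to 12.39 (1 of 6 rose and 1 fell), and alveolar type 1 markers at 13.83 to 14.07 and 13.34 to 13.78. The ranges of endothelial markers met at 12.44, with 3 of 6 called lower, where 1.51% of all genes were called lower. Their part in the rise of Il6, Osm and Socs3 was not tested, and in whole tissue fewer cells of a type and less RNA per cell cannot be told apart. With slides 4 to 6 alone, none of the 3 calls passed, at log2 fold changes of 1.51 for Il6 (adjusted p = 0.070), 0.78 for Osm (0.34) and 0.61 for Socs3 (0.25). The Osm call was also lost without any of 14 single samples, and that of Socs3 without PBS control replicate 2 or OVA control replicate 3, at 0.54.

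In PBS-challenged mice Il6, Il11 and Socs3 were called higher with some of the materials at the middle and high doses. Osm, Lif and Osmr were called higher in some groups at the high dose. Over the 12 comparisons with PBS controls, 23 of 120 member tests were called, all higher, where 4.41% of all gene tests were called and 2.72% were called higher. By limma no member was called in the reported fit at 2.5 μg of any material or at 10 μg of CuO PEG. Of these tests, 6 of 40 and 0 of 10 had an unadjusted p below 0.05. In these groups 0.91% (CuO 2.5), 0.346% (CuO COOH 2.5), 0.937% (CuO NH3 2.5), 0% (CuO PEG 2.5) and 0.429% (CuO PEG 10) of all genes were called in either direction. Other settings called some members at 2.5 μg. With the array as a random block, Il6 was called for CuO (0.80) and CuO NH3 (0.76), and Socs3 for CuO (0.68). The brightest probe per gene called Il6 for CuO NH3 (1.55), and dye, slide and position called Socs3 there (0.65). The Socs3 samples of that group lay at 11.78 to 12.42, above all PBS controls. At 10 μg CuO had 2 member calls, CuO COOH had 3 and CuO NH3 had 2, with 2.47%, 2.49% and 2.57% of all genes called higher. At 40 μg CuO had 5, CuO COOH had 3, CuO NH3 had 6 and CuO PEG had 2, with 7.81%, 5.96%, 7.35% and 1.67% of all genes called higher. The member median of the log2 fold changes at 40 μg was 0.84, 0.43, 0.60 and 0.29, while the median over all genes stayed between -0.01 and 0.01. All of these comparisons share the 7 PBS controls.

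Il6 had the largest log2 fold change of the 10 members at 40 μg of each material. It lay at 6.28, 6.75 and 6.57 in the 3 samples given 2.5 μg of CuO, at 6.80, 6.63 and 6.66 at 10 μg and at 7.08, 7.93 and 7.39 at 40 μg. With CuO COOH it lay at 6.10, 5.82 and 5.87, at 6.73, 6.61 and 6.48 and at 7.29, 6.99 and 7.16 at the 3 doses. With CuO NH3 it lay at 6.93, 6.19 and 6.76 at 2.5 μg, at 6.34, 6.92, 6.83 and 7.06 at 10 μg and at 8.10, 7.73 and 8.38 at 40 μg. The samples at 40 μg of these 3 materials all lay above the highest PBS control, and those of CuO COOH at 2.5 μg lay inside the control range. With CuO PEG it lay at 5.78, 5.93 and 5.85 at 2.5 μg, in none of them well above background, at 7.06, 5.90, 5.90 and 5.84 at 10 μg and at 6.80, 6.67 and 6.78 at 40 μg. Only the high dose of CuO PEG was apart from the controls as a group.

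**Figure D2:**
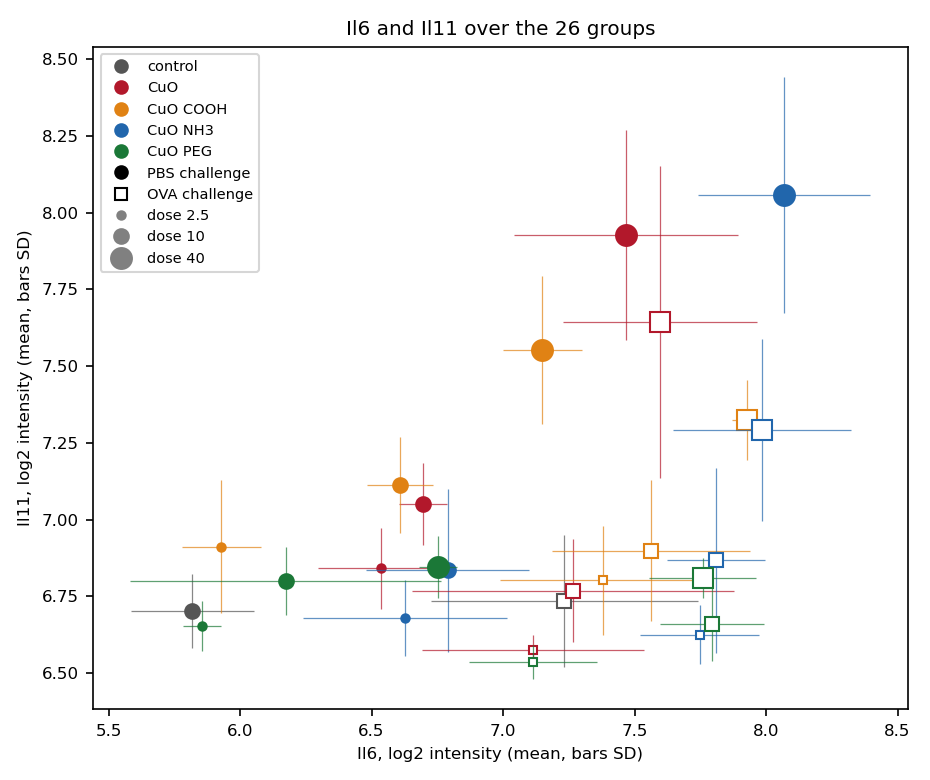
Log2 intensity of Il6 (horizontal axis) against that of Il11 (vertical axis), with dye, slide and position removed, as the mean of each of the 26 groups with bars of 1 SD. Circles are PBS-challenged and open squares OVA-challenged groups, colours the materials and symbol sizes the doses. Il6 stood higher in OVA-challenged than in PBS-challenged controls (7.23 ± 0.51 and 5.82 ± 0.23), and Il11 did not (6.73 ± 0.21 and 6.70 ± 0.12), while both reached their highest group means, 8.07 and 8.06, at 40 μg of CuO NH3 after PBS.

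At 40 μg core CuO gave a fitted log2 fold change of Il6 of 2.53 ± 0.39 (adjusted p = 5.7e-05), CuO COOH gave 1.89 ± 0.37 (0.0013), CuO NH3 gave 2.42 ± 0.27 (4.6e-07) and CuO PEG gave 1.59 ± 0.32 (0.0055). At 10 μg core CuO gave 1.83 ± 0.40 (0.0094), CuO COOH gave 1.67 ± 0.41 (0.022) and CuO NH3 gave 1.23 ± 0.28 (0.0083), whereas CuO PEG gave 0.23. At 2.5 μg core CuO gave 0.54, CuO COOH 1.00 and CuO NH3 1.18, none of which passed in the reported fit. No fold is given for CuO PEG at this dose, whose samples were not well above background. The values on slides 1 to 3 leaned on single arrays. Without replicate 2 of PBS-challenged CuO 40, or without replicate 2 of OVA-challenged CuO COOH 10, the value of CuO 40 fell to 1.13 and that of CuO 10 to 0.66, and neither was called. Without replicate 3 of PBS-challenged CuO COOH 10, or replicate 3 of OVA-challenged CuO 40, that of CuO COOH 10 was 0.76 and not called, and that call was lost in 12 of the 89 fits that left out 1 sample. That of CuO COOH 40 was lost, at 1.33, without replicate 1 or 3 of PBS-challenged CuO COOH 10, replicate 1 of PBS-challenged CuO COOH 40 or replicate 3 of OVA-challenged CuO 40, and rose to 3.15 without PBS control replicate 1. The CuO 10 call was also lost without PBS control replicate 3 or replicate 3 of OVA-challenged CuO COOH 10, and the CuO NH3 10 call, at 0.97, without replicate 4 of that group or of PBS-challenged CuO PEG 10. With dye, slide and position in place of the array, CuO COOH 10 gave 0.79 (0.089) and was not called.

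Il11, a cytokine of stromal and epithelial cells that is known for its part in tissue remodelling, moved most at the high dose. In PBS-challenged mice given CuO it lay at 6.69, 6.94 and 6.89 at 2.5 μg, at 6.93, 7.19 and 7.03 at 10 μg and at 7.54, 8.20 and 8.04 at 40 μg. At 40 μg it lay at 7.38, 7.45 and 7.83 with CuO COOH and at 8.02, 7.69 and 8.46 with CuO NH3. All 9 of these samples lay above the highest PBS control of 6.90. With CuO PEG it lay at 6.93, 6.73 and 6.88, of which 1 sample passed that control. Core CuO at 40 μg gave a log2 fold change of 1.74 ± 0.25 (adjusted p = 2.9e-05), CuO COOH gave 1.44 ± 0.24 (0.00026) and CuO NH3 gave 1.31 ± 0.18 (5.9e-06). For CuO PEG it was 0.21 ± 0.21, with a 95% interval of -0.22 to 0.64. At 10 μg Il11 was called for CuO, at 0.94 ± 0.26 (0.043), and for CuO COOH, at 1.32 ± 0.27 (0.0055), while CuO NH3 gave 0.09. The CuO COOH 10 samples lay at 7.26, 6.95 and 7.12, above the highest control, with a group mean of 7.11 against 6.70. With dye, slide and position in place of the array, the 10 μg values were 0.35 (0.24) for CuO and 0.41 (0.18) with the carboxyl coating, and neither was called. Of 9 settings, the reported one included, 4 called Il11 at CuO 10 and 5 at CuO COOH 10. The CuO 10 call was lost in 42 of the 89 fits that each left out 1 sample and the CuO COOH 10 call in 6, at 1.29 to 1.36, while the CuO COOH 40 call was lost, at 1.39, without PBS control replicate 1 or replicate 1 of OVA-challenged CuO COOH 2.5.

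By their gene values Osm and Lif moved less. The Osm values, here and in the OVA controls, average 2 probes, 1 of which was well above background in only 4 of the 89 samples. Osm lay at 6.80, 7.19 and 6.86 with 40 μg of CuO, at 6.80, 6.72 and 6.79 with CuO COOH, at 7.05, 6.99 and 7.18 with CuO NH3 and at 6.76, 6.79 and 7.07 with CuO PEG, against a highest PBS control of 6.74. CuO COOH lay partly within the control range and CuO NH3 wholly above it. The only called value was that of CuO NH3, with a log2 fold change of 0.63 ± 0.23 (adjusted p = 0.048), and was lost in 48 of the 89 fits that left out 1 sample. CuO gave 0.87 ± 0.33 (0.073) and CuO PEG 0.69 (0.23). By the Osm probe that was above background in all samples alone, CuO gave 1.60 ± 0.48 (0.022) and was called. On that probe the step from 2.5 to 40 μg of CuO PEG after PBS was also called, at 1.01 (limma, adjusted p = 0.011). Lif, whose product signals through the chains encoded by Lifr and Il6st, lay at 5.90, 6.05 and 6.19 in PBS controls (2 of 7 well above background), at 6.44, 6.67 and 6.61 with 40 μg of CuO, at 6.48, 6.49 and 6.48 with CuO COOH and at 6.52, 6.19 and 6.74 with CuO NH3. CuO and CuO COOH stood above the controls and CuO NH3 overlapped them. Lif was called with CuO, at a log2 fold change of 0.93 ± 0.29 (adjusted p = 0.030), and with CuO NH3, at 0.59 ± 0.21 (0.037), and CuO COOH gave 0.70 ± 0.28 (0.12). The CuO call was lost in 16 of the 89 fits that left out 1 sample and the CuO NH3 call in 20. With dye, slide and position in place of the array the values were 0.53 and 0.43, under the fold limit, and 6 and 4 of the 9 settings called them.

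Of the receptor chains, Osmr rose, Il6st did not pass the test and Il6ra leaned lower. Osmr lay at 9.07, 9.27 and 9.33 in PBS controls, at 9.60, 9.66 and 9.55 with 40 μg of CuO, at 9.75, 9.65 and 9.80 with CuO COOH, at 9.82, 9.59 and 9.81 with CuO NH3 and at 9.46, 9.49 and 9.55 with CuO PEG. Every one of these samples lay above all PBS controls. The log2 fold change was called for CuO, at 0.61 ± 0.18 (adjusted p = 0.021), and for CuO NH3, at 0.60 ± 0.13 (0.00096), and not for CuO COOH, at 0.48 (0.078), or CuO PEG, at 0.36 (0.27). Both calls lay just past the fold limit, and 6 and 4 of the 9 settings made them. The value for CuO dropped to 0.21 without replicate 2 of PBS-challenged CuO 40 or replicate 2 of OVA-challenged CuO COOH 10, where the call was lost in 6 of 89 fits, and that for CuO NH3 to 0.37 without its own replicate 1 or PBS control replicate 5.

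Il6ra lay at 9.85, 10.05 and 10.17 in PBS controls and at 9.52, 9.64 and 9.63 with 40 μg of CuO NH3. The groups did not overlap and the log2 fold change was -0.53 ± 0.11 (adjusted p = 0.001), under the fold limit. The brighter of its 2 probes gave -0.75 for CuO NH3 and -0.61 for CuO, both called on that probe, while the other probe gave -0.31 and 0.16. The group means of Il6st lay between 9.90 and 10.15 on the log2 scale. It had log2 fold changes between -0.21 and 0.12 over the 12 comparisons, of which 0 were called and 0 had an unadjusted p below 0.05 by limma.

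Socs3 was called in the groups in which Il6 was called, with the exception of 10 μg of CuO. It lay at 11.83, 12.37 and 12.08 with 2.5 μg of CuO, at 12.05, 12.04 and 12.03 with 10 μg and at 12.50, 12.75 and 12.70 with 40 μg. At 40 μg it lay at 12.59, 12.64 and 12.57 with CuO COOH, at 12.84, 12.93 and 13.17 with CuO NH3 and at 12.34, 12.25 and 12.33 with CuO PEG. Every one of these samples, from 2.5 μg of CuO on, lay above the highest PBS control of 11.73. At 40 μg its log2 fold change reached 1.31 ± 0.24 with CuO (adjusted p = 0.00035), 1.20 ± 0.23 with CuO COOH (0.00081), 1.13 ± 0.17 with CuO NH3 (1.7e-05) and 0.86 ± 0.20 with CuO PEG (0.015). At 10 μg Socs3 was called for CuO COOH, at 1.15 ± 0.25 (0.0099), and for CuO NH3, at 0.65 ± 0.17 (0.024), and not for CuO, at 0.72 (0.12). Without replicate 3 of PBS-challenged CuO COOH 10 or of OVA-challenged CuO 40, the value of CuO COOH 10 was 0.76 and not called, and that call was lost in 6 of the 89 fits. The CuO NH3 10 call was lost in 12 fits and the CuO PEG 40 call in 8, both also with the replicate number as a block (0.53 and 0.56). The CuO 40 call was lost, at 0.97, without replicate 2 of that group or of OVA-challenged CuO COOH 10.

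Stat3 itself was nearly flat, with group means between 9.84 and 10.20. Its largest change against PBS controls was with 40 μg of CuO, where it lay at 10.17, 10.18 and 10.20 against 9.76, 9.90 and 10.03 in the controls. The groups did not overlap, and the log2 fold change was 0.49 ± 0.17 (adjusted p = 0.058). Cebpd, which encodes C/EBPδ, a partner of STAT3 in the acute phase response, overlapped its controls with 10 and 40 μg of CuO. It lay at 12.99, 13.09 and 13.54 in PBS controls, at 13.96, 13.75 and 13.48 with 10 μg of CuO and at 13.14, 13.70 and 13.69 with 40 μg. Its log2 fold changes of 0.94 ± 0.50 (0.43) and 0.80 (0.32) did not pass the test.

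**Figure D3:**
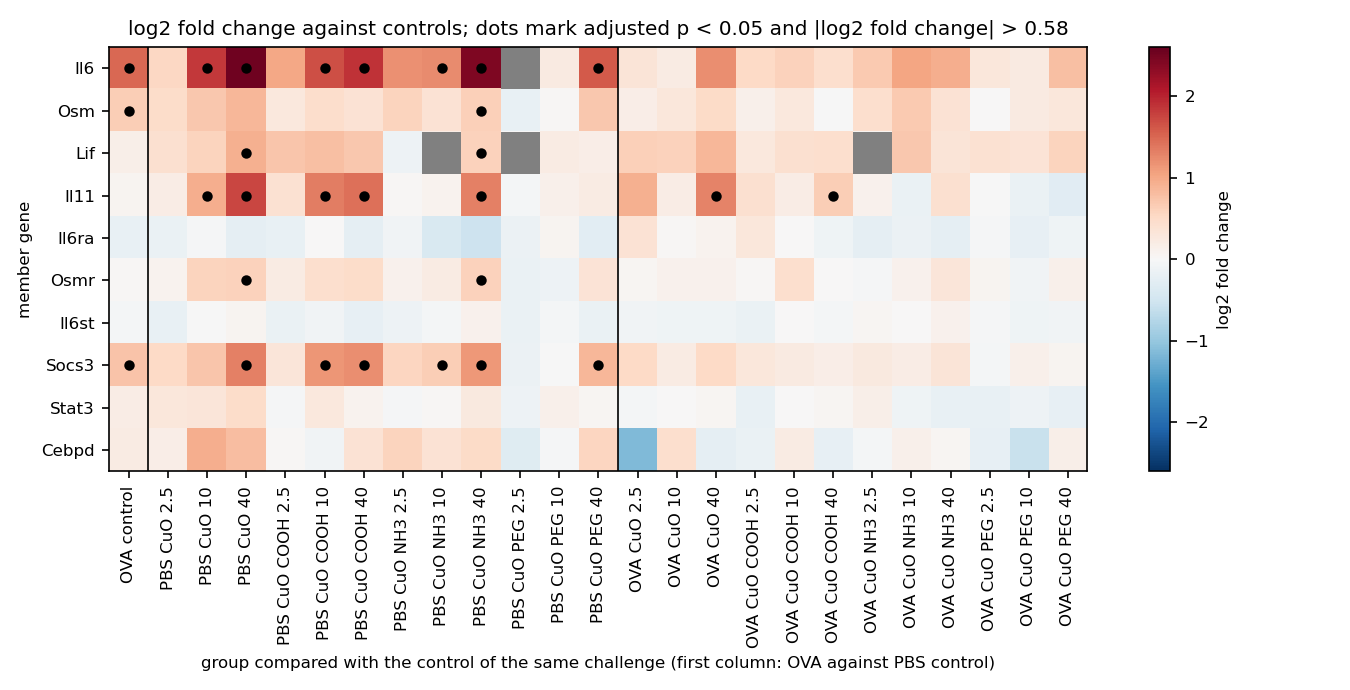
Log2 fold change of each member (down) in each comparison with the controls of the same challenge and between the controls (across), in colour from blue (lower) to red (higher), with dots on the called values and grey where 1 of the 2 groups had no sample well above background. The dots lie in the Il6, Osm, Lif, Il11, Osmr and Socs3 lines: 23 in the 12 PBS-challenged groups and 3 in the OVA controls, and 2 in the Il11 line of the OVA-challenged groups.

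After the OVA challenge Il11 alone was called among the members in the reported fit, in which Il6 and Socs3 did not pass the test in any particle group. Over the 12 comparisons with OVA controls, 2 of 120 member tests were called, both higher, where 1.2% of all gene tests were called and 0.679% were called higher. Il11 lay at 8.18, 7.57 and 7.17 with 40 μg of CuO, at 7.45, 7.19 and 7.34 with CuO COOH, at 6.96, 7.52 and 7.40 with CuO NH3 and at 6.82, 6.87 and 6.74 with CuO PEG. The CuO and CuO COOH samples lay above the highest OVA control of 7.01, and the CuO PEG samples lay inside the control range. Il11 was called with CuO, at a log2 fold change of 1.30 ± 0.25 (adjusted p = 0.008), and with CuO COOH, at 0.64 ± 0.18 (0.030), where 0.972% and 2.22% of all genes were called higher. CuO NH3 gave 0.41 (0.22) and CuO PEG -0.29. The CuO call was lost in 8 of the 89 fits that left out 1 sample. The CuO COOH value was 0.20 and not called without its own replicate 1 or OVA control replicate 1, and 6 of the 9 settings called it.

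Il6 in OVA-challenged mice had group means between 7.11 and 7.98 with particles against 7.23 ± 0.51 in the OVA controls. Its samples at 40 μg of CuO, at 7.76, 7.86 and 7.17, and of CuO NH3, at 7.63, 8.31 and 8.02, overlapped the controls. The log2 fold changes of the 12 groups ran from 0.22 to 1.22 and none passed, the nearest being CuO NH3 40 at 0.95 (adjusted p = 0.053) and CuO NH3 10 at 1.02 (0.056). Some other settings called Il6. For CuO NH3 40 they gave 0.86 with normexp background correction, 0.95 without dim probes and 1.35 by the brightest probe. Dye, slide and position gave 0.75 there and the array as a random block 0.67. CuO NH3 10 was called at 1.02 without dim probes and 1.16 by the brightest probe. CuO COOH 40 was called at 0.76 with the replicate number as a block and 0.72 with the random block. The other settings did not call them. Socs3 ranged from -0.06 to 0.52 and Osm from -0.01 to 0.69 without a call.

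The difference between the exposure effects after OVA and after PBS was tested as an interaction. Of 120 member tests 1 was called, Il6 with 40 μg of CuO NH3, where 0.347% of all gene tests were called and 1.4% were called lower in that comparison. Its exposure effect was smaller after OVA by a log2 value of -1.47 ± 0.38 (95% interval -2.26 to -0.68; adjusted p = 0.049), and the call held in 33 of the 89 fits that left out 1 sample. Core CuO gave a difference of -1.32 (0.19), CuO COOH one of -1.45 (0.16) and CuO PEG one of -0.80 (1). For Socs3 it was -0.79 (0.20), -1.03 (0.066), -0.80 (0.091) and -0.79 (0.80), none called. With dye, slide and position in place of the array, Socs3 was called for CuO, CuO COOH and CuO NH3 at -1.02, -0.76 and -1.04. For Il11 the values were -0.44, -0.80 (0.28), -0.90 (0.069) and -0.50, none called. Other settings called Il11 for CuO NH3. They gave -0.80 with the replicate number as a block, -0.80 with dye, slide and position and -0.79 with the array as a random block.

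The coated materials were set against core CuO in 18 pairs of matched dose and challenge. Dose was matched by mass of material and the coated materials held less copper, so that coating and copper cannot be told apart in these pairs. Of 180 member tests 1 was called, Il11 with CuO PEG at 40 μg after PBS, where 0.5% of all gene tests were called and 2.37% were called lower in that comparison. Il11 was lower with CuO PEG by a log2 value of -1.08 ± 0.23 (95% interval -1.54 to -0.63; adjusted p = 0.00084), with all 3 samples, at 6.73 to 6.93, below the CuO samples at 7.54 to 8.20. The call was kept in all 89 fits that left out 1 sample. After OVA the 2 groups were also apart, at -0.83 (95% interval -1.33 to -0.34; adjusted p = 0.12), and the difference was not called. With the coatings of CuO COOH and CuO NH3, Il11 after PBS did not differ beyond the test from core CuO, with intervals of -0.75 to 0.00 and -0.33 to 0.59.

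For Il6 at 40 μg after PBS the intervals were -0.92 to 0.29 for CuO COOH, -0.14 to 1.35 for CuO NH3 and -1.44 to 0.02 for CuO PEG. All 3 CuO PEG samples lay below the CuO samples, at a difference of -0.71 ± 0.36 (adjusted p = 0.22). Some other settings called this difference. They gave -1.24 with 75th percentile scaling, -0.94 with the replicate number as a block and -0.86 with the array as a random block. Both blocks also called Il6 and Socs3 lower with CuO PEG than with core CuO at 2.5 and 10 μg after PBS. After OVA the Il6 differences at 40 μg, 0.33, 0.39 and 0.16, did not pass. CuO and the 2 materials CuO NH3 and CuO PEG were on different slides and are joined through the controls alone, so that material and slide set can be told apart only as far as the controls allow.

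**Figure D4:**
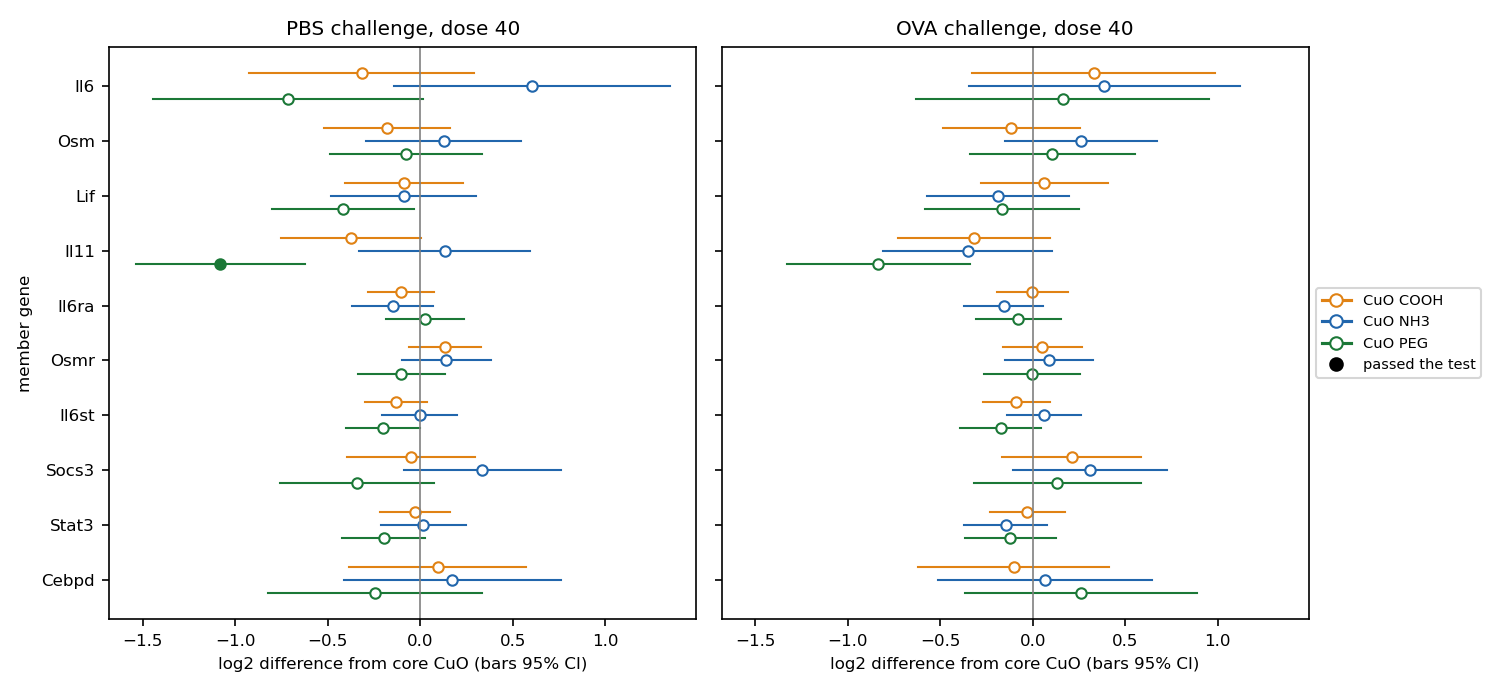
Log2 difference of each coated material from core CuO at 40 μg for the 10 members after PBS and after OVA, with 95% intervals as bars, filled points for called differences and 0 as a line. The interval of Il11 for CuO PEG after PBS (-1.54 to -0.63) lies below 0, and those of Il6 include 0.

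Within a material, the step from 2.5 to 40 μg was called for Il6, Il11 and Socs3 with some materials after PBS. After OVA it was called for Il11 alone, with CuO and CuO NH3. Of 80 member tests over 8 comparisons 11 were called, all higher, where 4.15% of all gene tests were called and 2.26% were called higher. The share of genes called higher was 3.08% with CuO, 3.65% with CuO COOH, 4% with CuO NH3 and 1.94% with CuO PEG after PBS, and 1.56% with CuO and 1.29% with CuO NH3 after OVA. Il11 rose by 1.09 ± 0.20 with CuO (adjusted p = 3.1e-05), by 0.64 ± 0.20 with CuO COOH (0.016) and by 1.38 ± 0.19 with CuO NH3 (4.8e-08) after PBS, and by 1.07 ± 0.19 with CuO (6.1e-05) and 0.67 ± 0.20 with CuO NH3 (0.017) after OVA. With dye and array as terms the steps after OVA were 0.37 (1) and 0.30 (0.71) and not called, and the step with CuO COOH after PBS was 1.05 (0.11). Without 1 sample the CuO COOH call was lost for replicate 2 or 3 of its 2.5 μg group or replicate 3 of its 40 μg group (0.48 to 0.59), and the CuO NH3 call after OVA for replicate 2 or 3 at 40 μg or replicate 1 at 2.5 μg (0.53 to 0.61). With CuO PEG Il11 gave 0.19 (0.68) after PBS and 0.27 (0.55) after OVA. Il6 rose after PBS by 0.93 ± 0.31 with CuO (0.028), 1.22 ± 0.32 with CuO COOH (0.0036) and 1.44 ± 0.30 with CuO NH3 (0.00014), the first of which was 0.60 and not called without replicate 2 of CuO 40, and also not called without replicate 1 or 3 of CuO 2.5. With dye and array as terms the step with CuO COOH was 0.88 (0.55) for Il6 and not called. With CuO PEG, whose 2.5 μg samples were not well above background, the Il6 step was not called (limma, adjusted p = 0.071). It was called with the replicate number as a block, with dye and array as terms and with the array as a random block. With the 2.5 μg values raised to the lowest level well above background, and without batch terms, the mean at 40 μg was 1.65-fold higher. The dose step after OVA gave no call for Il6, at 0.24 to 0.65.

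Socs3 rose with dose after PBS by 1.19 ± 0.18 with CuO COOH (adjusted p = 1.4e-06), 0.79 ± 0.17 with CuO NH3 (0.00025) and 0.63 ± 0.18 with CuO PEG (0.020). With CuO the step was 0.56 (0.021), under the fold limit, from a low-dose group that already stood above the controls. Without replicate 2 of PBS-challenged CuO NH3 2.5, the CuO NH3 value was 0.52, and the CuO PEG call was lost, at 0.61 to 0.62, without replicate 1 or 3 of either dose. With dye and array as terms the CuO COOH step was 0.90 (0.16). Il6ra stepped down by less than the fold limit, at -0.28 (0.025) with CuO, -0.36 (0.0032) with CuO COOH and -0.45 (5.1e-05) with CuO NH3.

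Over the 26 group means, Il6 went with Socs3 (Pearson r = 0.945) and Osm (0.883), and less with Il11 (0.391). Il11 went with Osmr and not with Osm (0.03). These are descriptions over groups that share arrays and controls. The genes outside the members whose group means were most like Il6 were Dclk1 (0.982), Sbno2 (0.973), a target of IL-10 and STAT3 signalling, and Nfil3 (0.970), a transcription factor. For Il11 they were Rhod (0.948), Ak1 (0.948) and Gdf15 (0.939), a stress-induced cytokine. For Osm they were Atf3 (0.967), Lilra6 (0.953) and Spi1 (0.953), which encodes the myeloid factor PU.1, and for Socs3 they were Lsm4 (0.959), Dctpp1 (0.958) and Xrcc3 (0.955).

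The rest of the pathway was read from lists of genes. The 7 other ligands of the family measured (Il27, Ebi3, Ctf1, Ctf2, Clcf1, Cntf and Il31) had no limma call in OVA controls or in the 8 groups at 40 μg. Of these 63 tests 7 had an unadjusted p below 0.05, and Ebi3, a subunit of IL-27, came nearest in OVA controls at a log2 fold change of 0.54 (adjusted p = 0.018), under the fold limit. Of 6 other receptor chains, 3 fell with 40 μg of CuO after PBS, namely Il11ra1, the private receptor of IL-11, by a log2 value of -1.07, Il27ra by -0.94 and Lifr by -0.68. With CuO NH3 Il11ra1 (-0.87) and Il27ra (-0.62) fell, with CuO COOH Il11ra1 (-0.80), and with CuO PEG 0 of 6 were called and 1 had an unadjusted p below 0.05. Of all genes, 6.23% were called lower with CuO, 5.87% with CuO NH3, 4.31% with CuO COOH and 0.512% with CuO PEG in these comparisons. In the 3 groups in which Il11ra1 fell, the ligand Il11 rose.

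Of 17 Janus kinases, STATs and inhibitors, 2 rose after OVA alone, Socs1 by 1.50 and Cish by 0.85, both feedback inhibitors. With 40 μg of CuO after PBS the phosphatase gene Ptpn2 rose by 0.80, and Stat4 (-0.96) and Stat5b (-0.82) fell. CuO NH3 gave Socs1 (0.91) and Ptpn2 (0.73) higher and Stat4 (-0.81) and Stat5b (-0.63) lower. Of 25 known STAT3 and C/EBP target genes, 8 rose and 1 fell after OVA alone, at a list median of 0.21 against -0.02 over all genes. Timp1, an inhibitor of matrix metalloproteinases, rose by 3.87, and Lcn2, the iron-binding lipocalin-2, by 1.41. At 40 μg after PBS 12 rose and 2 fell with CuO, 13 and 2 with CuO COOH, 14 and 2 with CuO NH3, and 7 and 0 with CuO PEG. The list medians were 0.67, 0.89, 0.66 and 0.37. With CuO, Timp1 rose by 5.28, Lcn2 by 4.00 and Lrg1 by 3.10, and with CuO PEG Timp1 rose by 3.04 and Lcn2 by 2.65. After OVA 4 rose with CuO, 3 with CuO COOH, 1 with CuO NH3, where Mcl1 and Vegfa fell, and 0 with CuO PEG, where 3 of 25 had an unadjusted p below 0.05. In the last 2 comparisons 3.97% and 0.639% of all genes were called. With CuO PEG at 40 μg after PBS, 7 targets were thus called in a group in which Il11 was not.

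Markers of other cells moved in the same comparisons. The mean level of the neutrophil markers at 40 μg after PBS was 10.89 to 11.26 with CuO (7 rose and 1 fell), 10.54 to 10.77 with CuO COOH (3 rose), 11.13 to 11.48 with CuO NH3 (6 rose and 1 fell) and 10.27 to 10.35 with CuO PEG (0 called, and 3 of 11 with an unadjusted p below 0.05), against 9.87 to 10.17 in PBS controls. That of the monocyte and macrophage markers was 10.94 to 11.19, 10.90 to 11.02, 11.05 to 11.20 and 10.92 to 11.18, against 10.15 to 10.44. The 8 fibroblast markers lay at 11.72 to 11.95, 11.97 to 12.04, 11.95 to 12.13 and 11.53 to 11.74, against 11.27 to 11.52. The 6 endothelial markers lay at 11.79 to 11.93, 11.76 to 11.99, 11.75 to 12.00 and 12.39 to 12.45, against 12.44 to 13.06. All 4 groups lay above the PBS controls in the macrophage and fibroblast markers, and the CuO PEG samples lay below those of the other 3 groups in the neutrophil markers and above them in the endothelial markers. Erythrocyte and alveolar macrophage markers lay below the range of the PBS controls with all 4 materials, and T and B cell markers with all but CuO PEG. Erythrocyte markers lay at 8.49 to 8.92 with CuO, 8.51 to 8.83 with CuO COOH, 8.88 to 8.94 with CuO NH3 and 9.68 to 10.07 with CuO PEG, against 10.15 to 10.62. Alveolar macrophage markers lay at 9.54 to 9.74, 10.09 to 10.20, 9.77 to 9.99 and 9.72 to 9.94, against 10.56 to 10.77. T cell markers lay at 7.40 to 7.70, 7.61 to 7.94 and 7.66 to 7.83 with the first 3 materials and, inside or just above the control range of 8.12 to 8.62, at 8.38 to 8.68 with CuO PEG. B cell markers lay at 7.71 to 7.96, 7.77 to 8.24 and 7.74 to 8.23, below the control range of 8.47 to 9.17, and inside it with CuO PEG at 8.56 to 8.81. Eosinophil markers were below the controls with CuO (6.25 to 6.55) and CuO COOH (6.60 to 6.63), airway epithelial markers were below theirs with CuO NH3 (10.75 to 11.05 against 11.30 to 11.90), and alveolar type 2 markers were above theirs with CuO PEG (15.73 to 15.92 against 15.37 to 15.63). The part of these cells in the levels of the members was not tested.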

How the data were processed

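The authors hybridised pooled lung RNA to 2-colour Agilent arrays, 1 sample per dye, and deposited the scanner output of each channel (Agilent Feature Extraction, which the file headers give as version 12.0.2.2). The deposited median foreground intensity, not normalized, was used. The authors also deposited a table of log2 values, used as an alternative. Here the intensities of 89 samples on 46 arrays of 6 slides were quantile-normalized on the log2 scale, and background was not subtracted. Control and outlier spots (37 to 168 per sample) were left out, repeated spots gave 56605 probes, of which 32994 had a RefSeq symbol, and their means per symbol gave 22911 genes, of which 22851 without a missing value were tested. The 23611 probes without a symbol were left out.

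Separate limma fits (R 4.3.3, limma 3.58.1) held the 26 groups taken from the sample labels. The fit for comparisons with controls and for interactions had dye and array as further terms. That for comparisons of materials and doses had dye, slide and array position, and no array term. The consensus correlation of samples on the same array was 0.23. Benjamini-Hochberg adjustment ran over all genes. The fits were also run on simulated data with effects of dye, slide and position. Noise in these data was independent between samples, with no effect shared within an array, so that they could not check the choice of batch terms. The figures were drawn with Python 3.11.15 and matplotlib 3.10.9. The members and gene lists were chosen with earlier results of these data known. All members are named, with at most 3 called genes per list and comparison (Ebi3 was added after its value was seen), and for 4 members the 3 genes with the closest group means. Because arrays hold 2 samples, leaving out a sample also moves comparisons of other groups. The number of samples limits the precision.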

Additional observations from a re-analysis of the deposited data

Results flagged for a closer look

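In PBS-challenged mice given 10 μg of CuO PEG, replicate 1 had an Il6 level of 7.06 on the log2 scale, while the other 3 samples lay at 5.90, 5.90 and 5.84. The gap to the nearest sample was 0.950 of the range of the group and past the 95% critical value of Dixon's test for 4 samples. It was also the only sample of the group well above background for Il6. Of 40 combinations of member and group of 4 or more samples tested, 1 passed, where chance gives about 1 in 20.

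In the reported fit the effect of 40 μg of CuO NH3 on Il6 differed between the challenges, at -1.47 on the log2 scale for OVA minus PBS (limma interaction, adjusted p = 0.049). It was the 1 call among 120 such member tests. The call held in 33 of the 89 fits that left out 1 sample and in 6 of the 9 settings, and not on the own slide set. For 40 μg of core CuO the difference was called in other settings. These were the replicate number as a block (-1.24), dye, slide and position (-1.28) and the array as a random block (-1.36).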

How the results depend on the processing

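The calls of Il6 and Socs3 in OVA controls and with 40 μg of CuO, CuO COOH and CuO NH3 after PBS, and the lower Il11 with CuO PEG than with CuO at 40 μg, held under all 9 planned settings, the reported one included. The 3 calls in OVA controls became 2 with normexp background correction or 75th percentile scaling, 1 to 3 when 1 sample was left out (1 without PBS control replicate 2), and 2 and 0 on slides 1 to 3 and slides 4 to 6 alone. The slide-set alternatives were added after seeing the data.

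Under 75th percentile scaling, which moved the median log2 fold change of all genes to between -0.65 and 0.80 in single comparisons, the calls were 8 instead of 23 after PBS, 0 instead of 2 after OVA, 0 instead of 1 for the interaction and 2 instead of 1 between materials. The Il11 calls against controls were lost in that setting. Leaving dim probes out gave 4 after OVA and 2 between materials, the deposited values gave 2 between materials, the brightest probe per gene 4 after OVA and 0 for the interaction, and normexp 0 for the interaction. With dye, slide and position in place of the array the interaction gave 7 calls, and with the array as a random block there were 5 calls after OVA, 6 for the interaction and 12 between materials. On the own slide set of each material alone there were 18 calls after PBS, 3 after OVA, 0 for the interaction and 12 for the dose step. Without 1 sample at a time the ranges were 14 to 24 after PBS (14 without OVA CuO COOH 10 replicate 2), 1 to 4 after OVA, 0 to 3 for the interaction, 1 to 2 between materials and 10 to 12 for the dose step. The dose step gave 8 to 13 calls over the settings. The Socs3 interaction of CuO at 2.5 μg changed sign to -0.80 (limma, adjusted p = 0.029) with slide and position terms. The causes were not tested.

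The deviations of samples with the same replicate number from their group means had median correlations of 0.04, 0.06 and 0.04 for numbers 1 to 3 and -0.13 for number 4, against -0.02 for different numbers. Of PBS and OVA controls alone, the pairs numbered 1 to 7 gave 0.70, 0.31, 0.44, -0.16, 0.41, 0.44 and 0.56, against a median of -0.28 for controls of different numbers. Each such pair shared its dye, and numbers 1, 5, 6 and 7 also the slide. Because number 4 lay below 0, the numbers were not taken to pair the samples. With the replicate number as a block in place of the array there were 14 calls after PBS, 6 after OVA, 6 for the interaction, 14 between materials, 12 for the dose step and 3 in OVA controls. Il6 in 5 of 7 and Lif in 5 of 7 PBS controls were not well above background, so that small differences there were not detectable.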
